A study of Mus musculus with 12 samples.

Results

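Hearts of mice that carried the IDH2 R140Q mutation were compared with control hearts, gene by gene, on the 4 arrays titled R140Q mutant and the 4 titled control, which make 8 of the 12 arrays of the series. The other 4 arrays hold hearts of mice with IDH2 R172K, the other mutant form, and served here to estimate the spread and to show where R140Q hearts differed from them. Total RNA of the heart was hybridised to Affymetrix arrays, and each gene was represented by its brightest probe set, which gave 19937 genes. All 3 groups were of 1 mixed background, C57BL/6 with 129/sv and Balb/c. At 5 weeks of age the mutant mice were given 4-hydroxytamoxifen (2 mg, for 3 days), a drug used to activate inducible recombinases. The sources used here do not give the treatment of control mice, the promoter that drove the mutant gene, or the sex and age at dissection of any group. An effect of the drug and one of R140Q therefore cannot be told apart. The labels number the arrays as replicates without naming animals, so a p-value covers only the spread between these arrays, which may be technical.

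IDH2 is the mitochondrial isocitrate dehydrogenase that uses NADP, and its normal product is 2-oxoglutarate. The R140Q enzyme reduces 2-oxoglutarate to D-2-hydroxyglutarate, a metabolite that can compete with 2-oxoglutarate at the dioxygenases that demethylate histones and DNA and hydroxylate hypoxia-inducible factors. The series concerns cardiomyopathy in such mice. Heart muscle under strain is known to switch on natriuretic peptides and fetal isoforms of its contractile proteins, which is the set of genes described first below.

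Values are log2 of the deposited intensity unless a sentence gives another scale, and differences are R140Q minus control in log2 with limma's standard error (SE). A gene counted as changed at a Benjamini-Hochberg adjusted p under 0.05 over all 19937 genes, in a limma fit of all 12 arrays. Array medians lay between 74.8 and 78.0 on the linear intensity scale. On the first principal component of the 8 arrays, which held 41.8% of the variance, control arrays lay between -22.55 and -9.43 and R140Q arrays between 9.45 and 23.27, so that the groups did not overlap there. The second component held 16% of the variance and set control 1 and 2 apart from control 3 and 4. On it control arrays 1 to 4 lay at 13.06, 11.41, -19.13 and -12.03, and R140Q arrays between -5.39 and 6.01. Idh2 was bright everywhere, at 12.83, 12.85, 12.67 and 12.62 in control arrays 1 to 4 and 12.41, 12.57, 12.27 and 12.53 in R140Q arrays 1 to 4. All 4 R140Q arrays lay below all 4 control arrays, but the difference of -0.30 did not pass (limma adjusted p = 0.301), and the sources used here do not say whether this probe set detects mutant mRNA. Xist, which coats the silenced X chromosome, lay at 3.92 ± 0.08 (SD, n = 4) in control and 3.86 ± 0.10 in R140Q hearts, and the Y-linked Eif2s3y at 9.45 ± 0.10 and 9.59 ± 0.08, so Xist was dim and Eif2s3y bright in both groups.

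Between R140Q and control hearts 439 of 19937 genes changed, or 2.2%, with 216 higher (1.08%) and 223 lower (1.12%). The median difference over all genes was 0.003. Most changes were modest: 17 of the higher and 38 of the lower genes moved by at least 2-fold and 246 moved by less than 1.5-fold. Of the 439, 435 had groups that did not overlap, against 2958 of all genes (14.8%), which split into 1554 higher (7.79%) and 1404 lower (7.04%). With the 8 arrays alone 1342 genes passed (6.73%), 731 higher (3.67%) and 611 lower (3.06%), since the spread among R172K arrays then no longer enters. Centring every array on its own median turned the split of 216 and 223 into 268 and 178. Leaving out 1 array moved the count from 439 to 100, 154 and 160 without control 1, 2 and 3, to 141, 110 and 260 without R140Q 1, 3 and 4, to 289 without R172K 1, and to 1015 and 982 without R172K 3 and 4. Atrial markers were high in control 3 and R172K 3 and lung markers in R140Q 4, and without these 3 arrays together 354 genes passed, 227 of them among the 439.

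**Figure D1:**
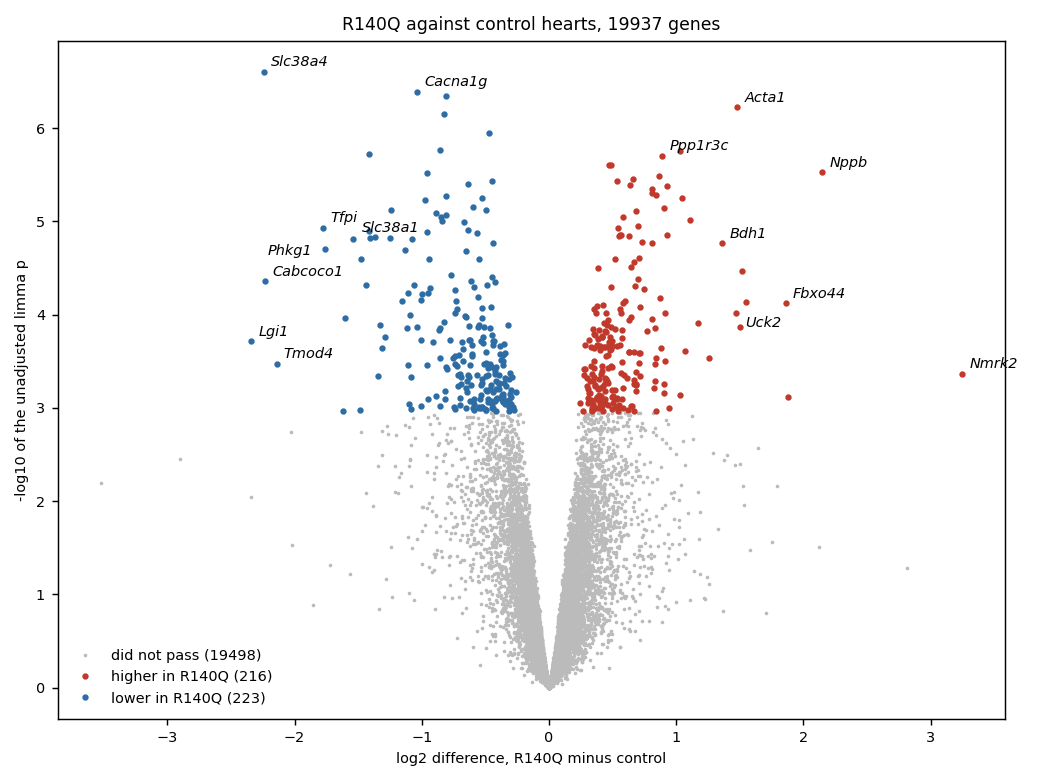
Each point is 1 of 19937 genes, with the log2 difference of R140Q minus control on the horizontal axis and -log10 of the unadjusted limma p on the vertical axis. The 216 higher genes are red, the 223 lower genes blue, and Nmrk2 (3.25) and Nppb (2.15) stand at the right and Lgi1 (-2.34) and Slc38a4 (-2.24) at the left among the coloured points.

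Several genes that heart muscle switches on under mechanical load rose in R140Q hearts. Of 18 natriuretic peptide and wall stress genes measured, 5 rose and none fell, where 1.08% of all genes rose, and the median difference of the list was 0.514 against 0.003 over all genes. The 5 were Nppb, Acta1, Tnfrsf12a, Xirp2 and Ankrd1. In 9 of the 18 the R140Q arrays all lay above the control arrays (7.79% of all genes), and in 1 they lay below. The count was 8 higher and 1 lower with the 8 arrays alone, where 3.67% and 3.06% of all genes were. It was 7 higher without control 3, R140Q 4 and R172K 3, where 186 of 19937 genes were.

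Because these 3 genes rose together, the stretch of 250 bases before the start of transcription is shown for Nppb, Acta1 and Ankrd1, from RefSeq on build GRCm38.p6, read 5′ to 3′ on the strand of the gene. They lie at chr4:147985650-147985899, plus strand (Nppb), chr8:123894776-123895025, minus strand (Acta1) and chr19:36119845-36120094, minus strand (Ankrd1). Capitals mark matches, on either strand, to the M-CAT element CATTCC, to TATAAA, to the CArG box that serum response factor is known to bind, and to the antioxidant response element.
Nppb: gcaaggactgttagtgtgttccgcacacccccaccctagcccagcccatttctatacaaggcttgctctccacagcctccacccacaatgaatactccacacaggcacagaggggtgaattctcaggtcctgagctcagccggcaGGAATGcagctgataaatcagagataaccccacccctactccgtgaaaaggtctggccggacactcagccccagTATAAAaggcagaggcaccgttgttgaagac
Acta1: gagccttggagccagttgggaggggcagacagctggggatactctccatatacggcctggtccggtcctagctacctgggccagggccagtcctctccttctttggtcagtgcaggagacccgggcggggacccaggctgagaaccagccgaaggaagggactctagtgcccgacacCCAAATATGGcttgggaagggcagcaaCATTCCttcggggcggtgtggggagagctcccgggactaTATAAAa
Ankrd1: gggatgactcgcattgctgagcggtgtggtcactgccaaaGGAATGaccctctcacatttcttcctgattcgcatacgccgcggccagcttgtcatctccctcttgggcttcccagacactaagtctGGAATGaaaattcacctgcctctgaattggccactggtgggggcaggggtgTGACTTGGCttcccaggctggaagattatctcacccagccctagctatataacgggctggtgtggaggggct
Nppb holds 1 M-CAT match (GGAATG, on the opposite strand) and 1 TATAAA, and Acta1 holds 1 CArG box, 1 M-CAT match and 1 TATAAA. Ankrd1 holds 2 M-CAT matches, both on the opposite strand, and 1 match to the antioxidant response element (TGACNNNGC or TGAGNNNGC). Over 32851 promoter windows of this length, 12.6% hold an M-CAT match, 12.4% TATAAA, 1.5% a CArG box and 23.0% an antioxidant response element. No motif overlaps another in these 3 windows, and a match is a description of the letters only.

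Nppb, which encodes the hormone B-type natriuretic peptide, read 10.27, 10.58, 10.47 and 9.77 in control arrays 1 to 4 and 12.35, 12.10, 12.75 and 12.49 in R140Q arrays 1 to 4. The lowest R140Q array was 1.51 units above the highest control array, and the rise was 2.15 ± 0.27, or 4.43-fold (limma adjusted p = 0.00394). Acta1, the actin of skeletal muscle and of the fetal heart, read 11.01, 11.46, 11.00 and 11.17 in control arrays 1 to 4 and 12.93, 12.42, 12.90 and 12.32 in R140Q arrays 1 to 4. R140Q 1 and 3 were the highest, the groups did not overlap, and the rise was 1.48 ± 0.16 (limma adjusted p = 0.00281). Tnfrsf12a, the receptor of the cytokine TWEAK, read 8.10, 8.01, 8.02 and 7.99 in control arrays 1 to 4 and 9.08, 9.37, 9.40 and 8.96 in R140Q arrays 1 to 4, a rise of 1.17 ± 0.21 from control arrays that lay close together. Xirp2, an actin-binding protein of the intercalated disc, read 11.15, 11.31, 11.57 and 11.64 in control arrays 1 to 4 and 12.34, 12.11, 12.57 and 12.02 in R140Q arrays 1 to 4 and rose by 0.84. Ankrd1, an ankyrin repeat protein that binds titin, read 12.60, 12.45, 12.66 and 12.52 in control arrays 1 to 4 and 13.32, 12.84, 13.37 and 13.37 in R140Q arrays 1 to 4; R140Q 2 stood below the other 3 R140Q arrays but above every control array. All R140Q arrays lay above all control arrays for these 5 genes, and the smallest rise was that of Ankrd1, 0.67. Nppb and Acta1 passed whichever of the 12 arrays was left out. Calls ended for Tnfrsf12a, Xirp2 and Ankrd1 in 4, 5 and 8 such fits (limma adjusted p up to 0.0698, 0.0924 and 0.115, respectively), the array left out being R140Q 1, 3 or 4, control 1, 2, 3 or 4, or R172K 2.

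Other members of the list did not pass. The atrial natriuretic peptide gene Nppa lay at 12.19 ± 0.99 in control and 11.65 ± 2.54 in R140Q hearts, a difference of -0.54 (limma adjusted p = 0.845) within a spread wider than that of Nppb. Nppa read 12.01, 12.20, 13.48 and 11.08 in control arrays 1 to 4 and 12.74, 7.85, 13.20 and 12.81 in R140Q arrays 1 to 4. R140Q 2 was far the lowest, and the negative sign of the difference rests on that array. Hspb7, a small heat shock protein of muscle, differed by 0.24 and Ankrd23, an ankyrin repeat protein related to Ankrd1, by 0.51 (limma adjusted p = 0.15 and 0.126), both without overlap of the groups. Among 6 genes that process natriuretic peptides or bind them, Corin fell and the other 5 did not pass (1.12% of all genes fell). Corin, the cardiac protease that cuts the atrial natriuretic peptide precursor, read 11.88, 11.69, 11.44 and 11.16 in control arrays 1 to 4 and 10.39, 10.86, 10.72 and 10.98 in R140Q arrays 1 to 4. All 4 R140Q arrays were below all control arrays, and the difference was -0.80 ± 0.17 (limma adjusted p = 0.0309). Furin, which cuts the B-type precursor, and the receptors Npr2 and Npr3 differed by -0.24, 0.04 and 0.27 without passing. Corin did not pass without R140Q 1 or 3, or control 1, 2 or 3 (limma adjusted p up to 0.1).

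**Figure D2:**
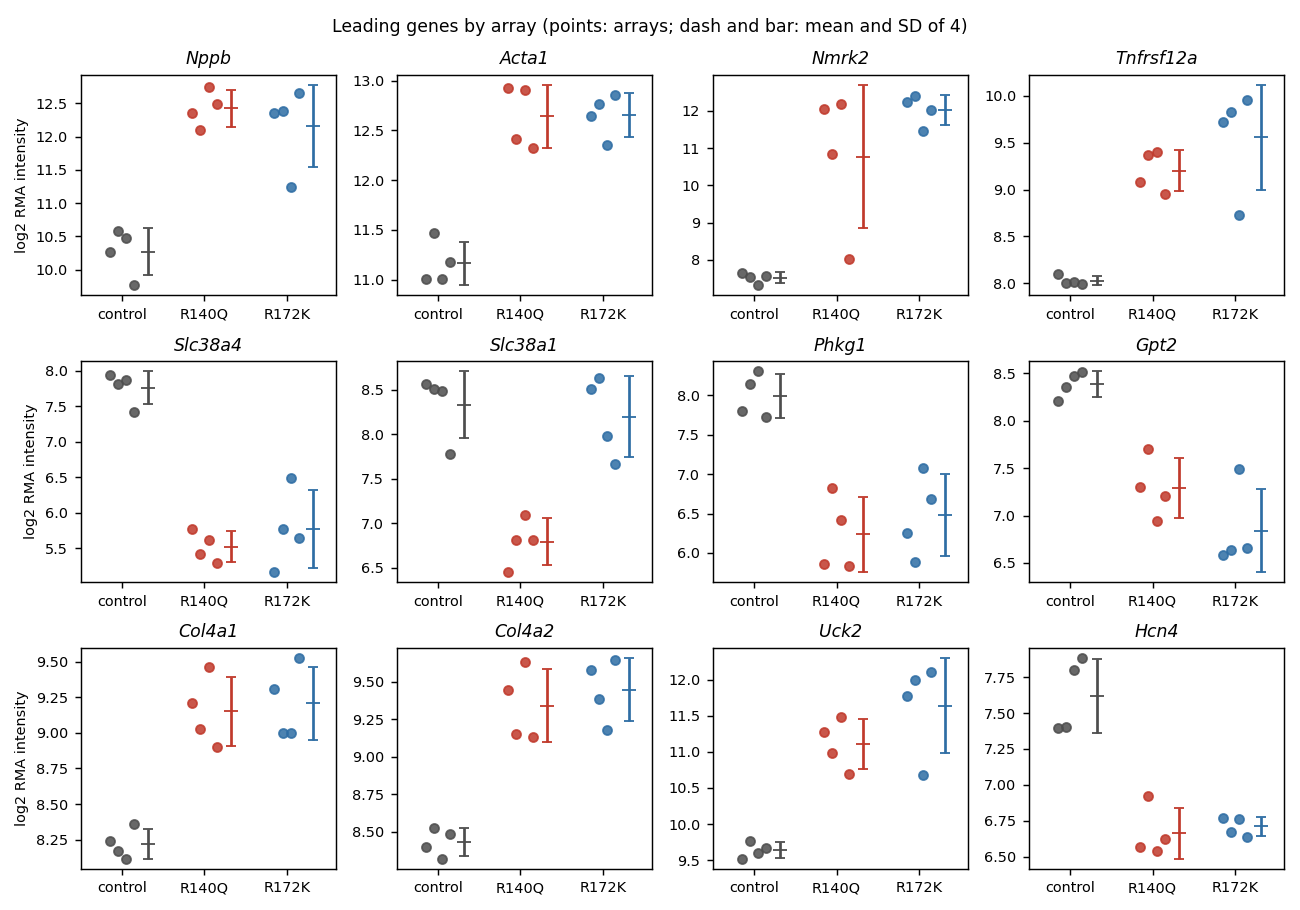
Log2 intensity of 12 genes in the 12 arrays, grouped as control (grey), R140Q (red) and R172K (blue); points are arrays, and the dash with its bar is the mean with the SD of 4. For each of the 12 genes the 4 R140Q arrays lie apart from the 4 control arrays, and for Nmrk2 R140Q 4 lies closest to control, at 8.03.

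The largest increase was that of Nmrk2, a nicotinamide riboside kinase of muscle that makes NAD from nicotinamide riboside. It read 7.65, 7.55, 7.33 and 7.58 in control arrays 1 to 4 and 12.05, 10.83, 12.19 and 8.03 in R140Q arrays 1 to 4. R140Q 1 and 3 were highest, R140Q 2 was lower, and R140Q 4 lay only just above the highest control array, so the rise of 3.25 ± 0.69 (limma adjusted p = 0.0335) stands for 4 unequal arrays. Without control 3, R140Q 4 and R172K 3 the difference was 4.10 (limma adjusted p = 0.00226). Nampt, which makes NAD from nicotinamide, moved the other way, from 11.51, 11.39, 11.18 and 11.03 in control arrays 1 to 4 to 10.40, 10.84, 10.17 and 10.43 in R140Q arrays 1 to 4, a difference of -0.82 ± 0.19 with no overlap of the groups. It did not pass without those 3 arrays (difference -0.84, limma adjusted p = 0.0554). The other 16 of 18 NAD genes did not pass, among them the transhydrogenase gene Nnt (-0.50) and the adenylyltransferase gene Nmnat1 (-0.33). Over all genes 1.08% rose and 1.12% fell. Without R140Q 1, 2, 3 or 4, control 1, 2, 3 or 4, or R172K 1 or 2, the call ended for 1 or more of Nmrk2 and Nampt, in 8 and 9 fits, respectively, with limma adjusted p up to 0.0997 and 0.139.

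A pair of enzymes of pyrimidine salvage rose as well. Uck2, the kinase that phosphorylates uridine and cytidine, read 9.52, 9.77, 9.60 and 9.67 in control arrays 1 to 4 and 11.28, 10.98, 11.48 and 10.70 in R140Q arrays 1 to 4. The lowest R140Q array was 0.93 units above the highest control array, and the rise was 1.47 ± 0.26 (limma adjusted p = 0.0168). Upp1, uridine phosphorylase, rose by 0.83 ± 0.15 (limma adjusted p = 0.0199), from 6.62 ± 0.08 to 7.45 ± 0.21. These were 2 of 29 nucleotide synthesis and salvage genes (1.08% of all genes rose), none of which fell, and the median of the list was 0.019. Bdh1, the mitochondrial enzyme that oxidises the ketone body beta-hydroxybutyrate, read 9.39, 9.88, 8.83 and 9.07 in control arrays 1 to 4 and 10.86, 10.25, 10.91 and 10.61 in R140Q arrays 1 to 4. Its groups did not overlap, and the rise was 1.36 ± 0.20 (limma adjusted p = 0.00561), while the ketone body transferase Oxct1 differed by -0.01 and the acetyl-CoA acetyltransferase Acat1 by -0.25 without passing. Bdh1 passed whichever of the 12 arrays was left out. Calls ended for Uck2 and Upp1 in 3 and 4 such fits (limma adjusted p up to 0.064 and 0.0729, respectively), the array left out being R140Q 1 or 3, or control 1, 2 or 3.

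Further large increases fell outside these pathways. Fbxo44, an F-box substrate adaptor of a ubiquitin ligase, read 5.98, 5.93, 7.45 and 7.42 in control arrays 1 to 4 and 8.58, 8.42, 8.72 and 8.51 in R140Q arrays 1 to 4; control 1 and 2 were far lower than control 3 and 4, and all R140Q arrays lay above all of them. Its rise was 1.86 ± 0.32, and Fbxo30, an F-box gene linked to muscle wasting, rose by 0.33 ± 0.07. The other 24 of 26 muscle ubiquitin ligase genes did not pass (1.08% of all genes rose). The median of this list was -0.222, and 7 of its differences were positive. In 9 of the 26 the R140Q arrays lay below all control arrays and in 4 above them, against 7.04% and 7.79% of all genes. With the 8 arrays alone 4 of them rose and 5 fell, where 3.67% and 3.06% of all genes did. Mybl1, a transcription factor of the MYB family, rose by 1.55 ± 0.27, to 7.30, 6.27, 7.44 and 7.35 in R140Q arrays 1 to 4, of which R140Q 2 was far the lowest. Sntb1, the beta-1 syntrophin that links the dystrophin complex to signalling proteins, read 8.16, 8.18, 8.18 and 8.08 in control arrays 1 to 4 and 10.53, 8.71, 9.65 and 9.71 in R140Q arrays 1 to 4. Its control arrays spanned 0.10 units, and its R140Q arrays 1.81 units. Nabp1, a single-stranded DNA binding protein (1.26), Bcl2, which restrains apoptosis (1.03), Ctla2a, which resembles the propeptide of cathepsins (1.04), and the kelch repeat gene Klhdc8a (1.11) also rose. Leaving out any 1 of the 12 arrays ended no call for Ctla2a or Klhdc8a. Calls ended for Fbxo44, Fbxo30, Mybl1, Sntb1, Nabp1 and Bcl2 in 2, 7, 3, 4, 5 and 9 such fits (limma adjusted p up to 0.0559, 0.0999, 0.0562, 0.0653, 0.0905 and 0.127, respectively), the array left out being R140Q 1, 3 or 4, control 1, 2, 3 or 4, or R172K 1 or 2.

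The largest decreases included genes of quite different function. Lgi1, a secreted protein known from synapses, read 8.28, 8.53, 7.75 and 8.41 in control arrays 1 to 4 and 5.14, 7.14, 5.53 and 5.80 in R140Q arrays 1 to 4, a difference of -2.34 ± 0.45. Cabcoco1 fell by 2.23 ± 0.37, and Tmod4, the tropomodulin that caps actin filaments in skeletal muscle, fell by 2.14 ± 0.44. R140Q 1 was the lowest and R140Q 2 the highest R140Q array for all 3 genes, and no R140Q array reached the control range. Tfpi, the inhibitor of the tissue factor pathway of coagulation, read 10.07, 10.11, 9.60 and 9.06 in control arrays 1 to 4 and 7.38, 8.35, 7.86 and 8.15 in R140Q arrays 1 to 4, a difference of -1.77 ± 0.25 without overlap. As3mt, which methylates arsenic, read 9.46, 9.61, 9.62 and 9.58 in control arrays 1 to 4 and 7.78, 8.60, 8.02 and 8.21 in R140Q arrays 1 to 4 and fell by 1.41 ± 0.20. Its control arrays spanned 0.16 units, and its highest R140Q array was 0.86 units below them. The galactosyltransferase B3galt2 (-1.62), Armh4 (-1.60), Sh3rf2 (-1.48), the dihydrodiol dehydrogenase Dhdh (-1.44), the GABA receptor subunit Gabrg3 (-1.42) and Gdap10 (-1.41) also fell. In all 12 fits that left out 1 array, Cabcoco1, Tfpi, As3mt, Sh3rf2, Dhdh, Gabrg3 and Gdap10 still passed. Without R140Q 1, 2, 3 or 4, control 1, 2, 3 or 4, or R172K 1 or 2, the call ended for 1 or more of Lgi1, Tmod4, B3galt2 and Armh4, in 6, 4, 10 and 5 fits, respectively, with limma adjusted p up to 0.0786, 0.0951, 0.145 and 0.065.

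A few genes of amino acid transport and transamination fell. Of 29 amino acid transporter genes, 2 fell and none rose (1.12% of all genes fell). Slc38a4, a sodium-coupled transporter of neutral amino acids, read 7.94, 7.81, 7.87 and 7.42 in control arrays 1 to 4 and 5.77, 5.42, 5.61 and 5.29 in R140Q arrays 1 to 4. The highest R140Q array was 1.65 units below the lowest control array, and the difference was -2.24 ± 0.22, which left 0.212 of the control level (limma adjusted p = 0.00281). Slc38a1, a glutamine transporter of the same family, read 8.56, 8.51, 8.48 and 7.77 in control arrays 1 to 4 and 6.45, 6.81, 7.09 and 6.81 in R140Q arrays 1 to 4. Control 4 was the lowest of its group, still above the highest R140Q array, and the difference was -1.54 ± 0.23 (limma adjusted p = 0.00545). The related Slc38a2, the bright family member of the list, differed by 0.11 (limma adjusted p = 0.786). Slc38a4 and Slc38a1 passed whichever of the 12 arrays was left out.

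Gpt2, the mitochondrial alanine transaminase that links pyruvate and glutamate to alanine and 2-oxoglutarate, read 8.21, 8.35, 8.46 and 8.51 in control arrays 1 to 4 and 7.30, 7.70, 6.95 and 7.21 in R140Q arrays 1 to 4. The groups were separated by 0.51 units, and the difference was -1.10 ± 0.20 (limma adjusted p = 0.0177). Bcat2, the mitochondrial transaminase of branched-chain amino acids, read 10.08, 10.23, 9.88 and 10.02 in control arrays 1 to 4 and 9.34, 9.72, 9.28 and 9.39 in R140Q arrays 1 to 4 and fell by 0.62 ± 0.12. The other 18 of 20 glutamate and transaminase genes did not pass, and the bright aspartate transaminases Got1 and Got2 differed by -0.07 and -0.06. Beyond transamination, 3 of 19 genes of branched-chain amino acid breakdown fell and none rose (1.12% of all genes fell). These were Bcat2, Ppm1k, the phosphatase that activates the branched-chain ketoacid dehydrogenase (-1.01 ± 0.24), and Acadsb, an acyl-CoA dehydrogenase of isoleucine breakdown (-0.59 ± 0.14). The median of these 19 was -0.429, 16 of them had a negative difference, and in 12 the R140Q arrays lay below all control arrays, against 7.04% of all genes. With the 8 arrays alone 8 of the 19 fell, where 3.06% of all genes did. Without control 3, R140Q 4 and R172K 3 the count was 2, where 168 of 19937 genes fell. Ivd, the dehydrogenase of leucine breakdown, lay at 11.09 ± 0.23 in control and 10.45 ± 0.30 in R140Q hearts and did not pass (limma adjusted p = 0.146). Calls ended for Gpt2, Bcat2, Ppm1k and Acadsb in 3, 5, 9 and 9 fits that left out 1 array (limma adjusted p up to 0.0615, 0.0786, 0.145 and 0.141, respectively), the array left out being R140Q 1, 3 or 4, control 1, 2, 3 or 4, or R172K 1 or 2.

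Genes of glycogen handling changed at single steps. Phkg1, the catalytic subunit of muscle phosphorylase kinase, which activates glycogen phosphorylase, read 7.80, 8.15, 8.30 and 7.72 in control arrays 1 to 4 and 5.86, 6.82, 6.42 and 5.83 in R140Q arrays 1 to 4. The groups were separated by 0.90 units, and the difference was -1.76 ± 0.27, which left 0.296 of the control level (limma adjusted p = 0.00639). Phka1, the muscle regulatory subunit of the same kinase, rose by 0.50 ± 0.12. The other 10 of 12 breakdown genes did not pass (1.08% of all genes rose and 1.12% fell), among them the muscle phosphorylase Pygm (-0.22). On the synthesis side, 2 of 14 rose and none fell (1.08% of all genes rose). Ppp1r3c, which targets protein phosphatase 1 to glycogen, read 9.72, 9.95, 10.12 and 10.02 in control arrays 1 to 4 and 10.86, 10.79, 11.10 and 10.61 in R140Q arrays 1 to 4 and rose by 0.89 ± 0.11 (limma adjusted p = 0.00394). Ugp2, which makes UDP-glucose, read 10.72, 10.80, 10.52 and 10.47 in control arrays 1 to 4 and 12.07, 11.29, 11.53 and 11.14 in R140Q arrays 1 to 4, a rise of 0.88 ± 0.17 with no overlap. The glycogen synthase Gys1 differed by 0.18 and the muscle targeting subunit Ppp1r3a by -0.68, neither passing. Phka1 did not pass without control 3, R140Q 4 and R172K 3 (difference 0.39, limma adjusted p = 0.169). In all 12 fits that left out 1 array, Phkg1 and Ppp1r3c still passed. Without R140Q 1, 3 or 4, control 1, 3 or 4, or R172K 1 or 2, the call ended for 1 or more of Phka1 and Ugp2, in 8 and 4 fits, respectively, with limma adjusted p up to 0.122 and 0.077.

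In the central energy pathways few genes passed. None of 24 glucose uptake and glycolysis genes, 35 fatty acid genes, 61 respiratory chain genes and 25 mitochondrial regulators passed. Their medians were -0.002, -0.209, -0.069 and -0.009. In the fatty acid list 5 of 35 differences were positive, and the bright Lpl, Cd36 and Fabp3 differed by -0.28, 0.02 and 0.03. In the respiratory chain list the R140Q arrays lay below all control arrays for 16 of 61 genes and above them for 1, against 7.04% and 7.79% of all genes. With the 8 arrays alone 1 glycolysis gene rose and 2 fell, and 4 fatty acid, 3 respiratory chain and 4 regulator genes fell. In that fit 3.67% of all genes rose and 3.06% fell. Among 32 genes of pyruvate entry and the tricarboxylic acid cycle, only Me2, the mitochondrial malic enzyme, passed (1.08% of all genes rose). It rose from 6.91 ± 0.14 to 7.60 ± 0.10 (0.68 ± 0.15, limma adjusted p = 0.0407). None of 12 isocitrate dehydrogenase and hydroxyglutarate enzyme genes passed, with -0.20 for Idh3g and -0.14 for Idh3b, subunits of the NAD-dependent enzyme. For Me2 the call ended without R140Q 1, 3 or 4, control 1, 2, 3 or 4, or R172K 2 (limma adjusted p up to 0.112).

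The mRNA of 2-oxoglutarate dioxygenases and of hypoxia-inducible factor targets was examined because D-2-hydroxyglutarate can compete with 2-oxoglutarate at these enzymes. Enzyme activity was not measured, so whether such competition took place was not tested. Of 39 dioxygenase genes 1 rose, where 1.08% of all genes did, and the median was 0.001. This 1 gene was Alkbh3, which repairs alkylated DNA and RNA, with a rise of 0.49 ± 0.09 (limma adjusted p = 0.0199). Egln3, the hypoxia-inducible factor prolyl hydroxylase that hypoxia itself induces, lay at 10.30 ± 0.33 in control and 11.00 ± 0.21 in R140Q hearts, with no overlap, and did not pass (limma adjusted p = 0.0571). None of 22 hypoxia-inducible factor targets passed, with a median of 0.124. Of the 22, 4 were higher with the 8 arrays alone, where 3.67% of all genes were. Without control 3, R140Q 4 and R172K 3 the count was 2, where 186 of 19937 genes were higher. Alkbh3 did not pass without R140Q 1 or 3, or control 1 or 3 (limma adjusted p up to 0.0639).

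**Figure D3:**
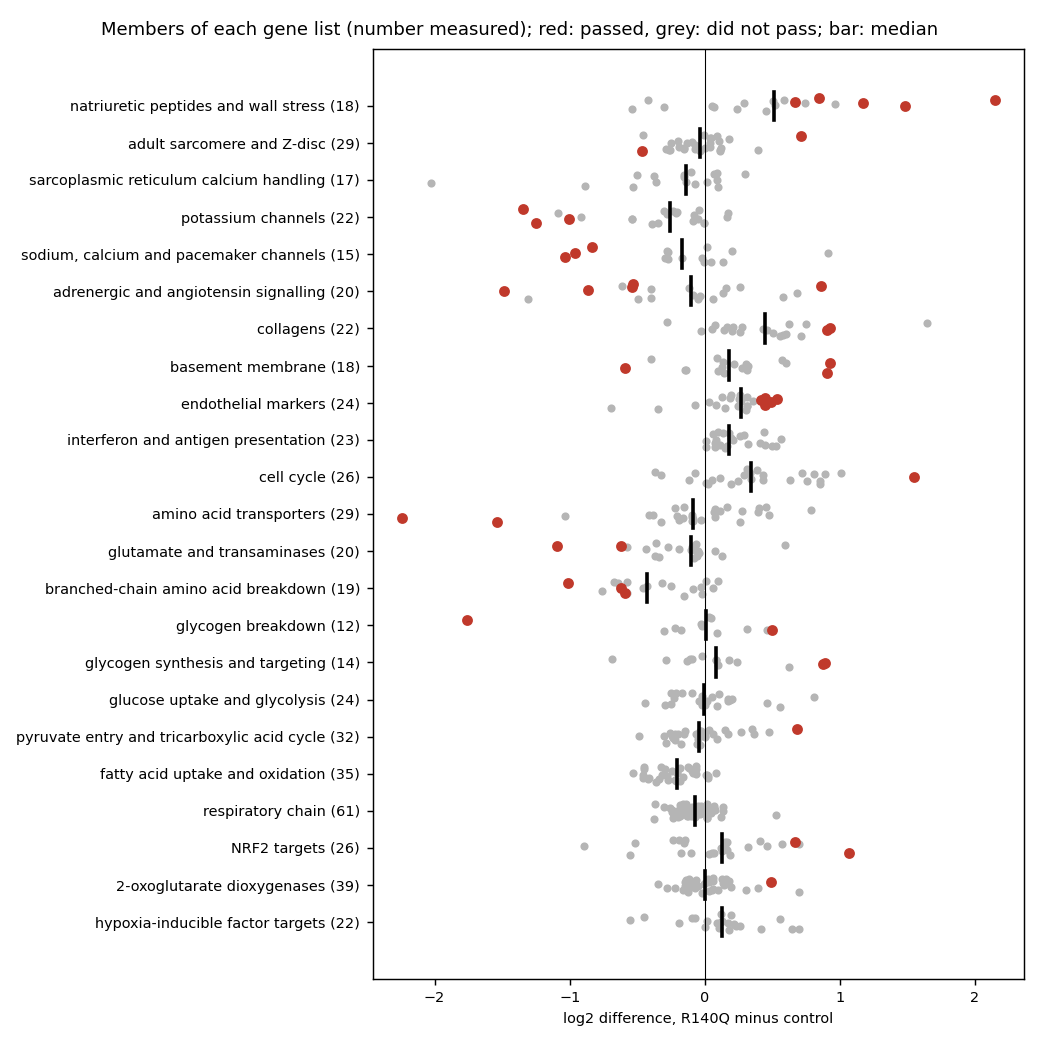
Each point is a gene of the list named at the left, placed by its log2 difference of R140Q minus control; red points passed, grey points did not, and the bar is the median of the list. The wall stress list has its median at 0.514 and the branched-chain amino acid breakdown list at -0.429, while glycolysis lies at -0.002.

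Some ion channel genes of the heart cell fell. Of 22 potassium channel genes 3 fell and none rose, and of 15 sodium, calcium and pacemaker channel genes 3 fell and none rose, where 1.12% of all genes fell. Kcnj5, a subunit of the potassium channel that acetylcholine opens through its receptor, read 9.22, 9.38, 9.87 and 9.45 in control arrays 1 to 4 and 8.22, 8.43, 7.87 and 8.40 in R140Q arrays 1 to 4, a difference of -1.25 ± 0.18 (limma adjusted p = 0.00545). Kcnj2, the inward rectifier that sets the resting potential of ventricular muscle, read 8.79, 8.96, 8.43 and 8.40 in control arrays 1 to 4 and 7.99, 7.30, 7.73 and 7.56 in R140Q arrays 1 to 4 and fell by 1.00 ± 0.19. Kcne1, an accessory subunit of the slow delayed rectifier, read 8.14, 7.94, 6.87 and 6.79 in control arrays 1 to 4 and 5.97, 6.12, 6.40 and 5.87 in R140Q arrays 1 to 4. Control 1 and 2 lay well above control 3 and 4, and the groups did not overlap, with a difference of -1.34 ± 0.29. The medians of the potassium list and of the other channel list were -0.258 and -0.17, and 10 of the 22 potassium channel genes had R140Q arrays below all control arrays (7.04% of all genes). Kcne1 did not pass without control 3, R140Q 4 and R172K 3 (difference -1.46, limma adjusted p = 0.0638). In the fit of the 8 arrays alone 8 of the 22 potassium channel genes fell, where 3.06% of all genes did. Most atrial markers were lower by group mean in the same arrays, with a median difference of -0.893 over 12 markers, none of which passed. It was -0.92 for the atrial potassium channel gene Kcnj3 and -3.52 for the atrial light chain Myl7. With the log2 intensity of Myl7 as a covariate Kcnj5, Kcnj2 and Kcne1 did not pass (limma adjusted p = 0.142, 0.143 and 0.0622), and the part of atrial tissue was not tested further. In all 12 fits that left out 1 array, Kcnj5 still passed. Without R140Q 1, 2, 3 or 4, control 1 or 2, or R172K 1, the call ended for 1 or more of Kcnj2 and Kcne1, in 4 and 7 fits, respectively, with limma adjusted p up to 0.0796 and 0.101.

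Hcn4, the pacemaker channel of the sinus node, read 7.40, 7.40, 7.80 and 7.88 in control arrays 1 to 4 and 6.57, 6.92, 6.54 and 6.63 in R140Q arrays 1 to 4 and fell by 0.96 ± 0.12 (limma adjusted p = 0.00394). Cacna1g, a T-type calcium channel, read 7.74, 7.50, 7.76 and 7.86 in control arrays 1 to 4 and 6.40, 6.86, 6.75 and 6.71 in R140Q arrays 1 to 4, a difference of -1.04 ± 0.11 (limma adjusted p = 0.00281). Cacna2d1, an auxiliary subunit of calcium channels, read 11.34, 11.05, 10.92 and 11.30 in control arrays 1 to 4 and 10.05, 10.51, 10.30 and 10.40 in R140Q arrays 1 to 4 and fell by 0.84 ± 0.12. All R140Q arrays lay below all control arrays for these 3 genes. With Myl7 as a covariate, as for the potassium channels, none of the 3 passed (limma adjusted p = 0.1 for Hcn4, 0.0545 for Cacna1g and 0.0622 for Cacna2d1). Their differences in that fit were -0.79, -0.95 and -0.95. Gja1, the main gap junction protein of the ventricle, and Cacna1c, the L-type calcium channel, differed by 0.02 and -0.30 and did not pass. Hcn4, Cacna1g and Cacna2d1 passed whichever of the 12 arrays was left out.

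Receptors for autonomic signals also moved. Of 20 adrenergic and angiotensin signalling genes 1 rose and 4 fell, where 1.08% and 1.12% of all genes did. Chrm2, the muscarinic receptor through which the vagus nerve slows the heart, read 11.75, 11.71, 11.93 and 11.67 in control arrays 1 to 4 and 10.36, 10.86, 11.18 and 11.19 in R140Q arrays 1 to 4. R140Q 1 was lowest, the groups did not overlap, and the difference was -0.87 ± 0.16 (limma adjusted p = 0.0203). The microRNA gene Mir490, which lies within Chrm2 in GRCm38.p6 and was chosen after its values were seen, read 6.80, 6.89, 6.97 and 6.25 in control arrays 1 to 4 and 4.99, 5.96, 4.81 and 5.89 in R140Q arrays 1 to 4 and fell by 1.31 ± 0.26 (limma adjusted p = 0.0239). Maob, a monoamine oxidase, read 9.98, 10.05, 10.22 and 10.10 in control arrays 1 to 4 and 7.55, 9.50, 8.62 and 8.74 in R140Q arrays 1 to 4 and fell by 1.49 ± 0.35, with R140Q 1 far below R140Q 2. Adra1b, an alpha-1 adrenergic receptor (-0.53), and Pde1c, a phosphodiesterase activated by calmodulin (-0.54), fell too. Ednrb, the endothelin B receptor, rose by 0.86 ± 0.11 (limma adjusted p = 0.00394), from 8.47 ± 0.09 to 9.33 ± 0.15. Without control 3, R140Q 4 and R172K 3 only Chrm2 of the 4 that fell still passed, with a difference of -0.91 (limma adjusted p = 0.0341). Leaving out any 1 of the 12 arrays ended no call for Ednrb. Calls ended for Chrm2, Mir490, Maob, Adra1b and Pde1c in 3, 5, 9, 9 and 8 such fits (limma adjusted p up to 0.0675, 0.0821, 0.128, 0.122 and 0.132, respectively), the array left out being R140Q 1, 2, 3 or 4, control 1, 2, 3 or 4, or R172K 1 or 2.

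Few genes of the contractile apparatus passed. Of 29 adult sarcomere and Z-disc genes, Flnc, a filamin of the Z-disc, rose by 0.71 ± 0.15, and Nebl, the nebulette of the thin filament, fell from 11.00, 11.01, 10.98 and 10.99 in control arrays 1 to 4 to 10.41, 10.63, 10.40 and 10.68 in R140Q arrays 1 to 4. The control arrays of Nebl spanned 0.03 units, and the difference was -0.47 ± 0.10 (limma adjusted p = 0.0296). In 10 of the 29 the R140Q arrays lay below all control arrays (7.04% of all genes) and in 1 above them. Of the 29, 3 fell with the 8 arrays alone, where 3.06% of all genes did. The 3 brightest of the list, Actc1, Tnnt2 and Tnni3, differed by 0.00, -0.10 and -0.19 without passing. Myh7, the slow myosin of the fetal mouse ventricle, lay at 9.43 ± 0.23 in control and 9.01 ± 0.61 in R140Q hearts (limma adjusted p = 0.489), so Acta1 and Tmod4 were the changed members among 17 fetal and skeletal isoforms. In the dystrophin complex, 14 genes, Sntb1 rose and alpha-sarcoglycan (Sgca) fell by 0.42 ± 0.10. None of 17 calcium handling genes of the sarcoplasmic reticulum passed, with -0.15 for the calcium pump Atp2a2 and -0.16 for its regulator phospholamban (Pln). Of the 17, 2 fell with the 8 arrays alone, where 3.06% of all genes did. Sgca, Sntb1 and Tmod4 did not pass without control 3, R140Q 4 and R172K 3 (limma adjusted p = 0.122, 0.0809 and 0.0684). Without R140Q 1, 2, 3 or 4, control 1, 2, 3 or 4, or R172K 1 or 2, the call ended for 1 or more of Flnc, Nebl and Sgca, in 7, 6 and 9 fits, respectively, with limma adjusted p up to 0.106, 0.0964 and 0.122.

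In the matrix, the basement membrane collagens rose. Of 22 collagen genes 2 rose and none fell (1.08% of all genes rose), with a median of 0.448. Col4a1 read 8.24, 8.17, 8.12 and 8.36 in control arrays 1 to 4 and 9.21, 9.03, 9.46 and 8.90 in R140Q arrays 1 to 4, a rise of 0.93 ± 0.14 (limma adjusted p = 0.00545). Col4a2, which makes the heterotrimer with Col4a1, read 8.40, 8.53, 8.32 and 8.48 in control arrays 1 to 4 and 9.45, 9.15, 9.63 and 9.13 in R140Q arrays 1 to 4, a rise of 0.91 ± 0.12 (limma adjusted p = 0.00472). Both genes share the order of R140Q arrays, with R140Q 3 highest and R140Q 4 lowest, and no array crossed between groups. In RefSeq annotation of GRCm38.p6 the start sites of this pair lie 21 bases apart on opposite strands. The fibrillar collagens Col1a1 and Col1a2 differed by 0.71 and 0.58 with overlap of the groups, and Col8a1 went from 8.40 ± 0.17 to 10.04 ± 0.69 without overlap yet did not pass (limma adjusted p = 0.0742). R140Q arrays lay above all control arrays for 9 of the 22 collagens and below them for 1, against 7.79% and 7.04% of all genes. With the 8 arrays alone 4 of them rose, where 3.67% of all genes did. Col4a1 and Col4a2 passed whichever of the 12 arrays was left out.

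Other matrix genes changed singly. Lama5, a laminin chain of basement membranes, read 8.92, 8.89, 9.08 and 9.21 in control arrays 1 to 4 and 8.43, 8.60, 8.49 and 8.23 in R140Q arrays 1 to 4 and fell by 0.59 ± 0.10, so that 2 of 18 basement membrane genes rose, the 2 collagens, and 1 fell. The basement membrane proteoglycan Hspg2 and the collagen-binding Sparc differed by 0.27 and 0.60, without overlap and without passing. Of 30 matrix enzymes and matricellular proteins 1 fell, thrombospondin 2 (Thbs2, -0.55 ± 0.13), though the median of the list was 0.451. In the fit of the 8 arrays alone 7 rose and 2 fell, where 3.67% and 3.06% of all genes did. Itga6, a laminin receptor subunit, read 8.86, 9.09, 9.20 and 9.06 in control arrays 1 to 4 and 10.07, 9.91, 10.20 and 9.76 in R140Q arrays 1 to 4, a rise of 0.93 ± 0.12 (limma adjusted p = 0.00394), and the collagen receptor subunit Itga1 rose by 0.63 ± 0.11. These were 2 of 16 integrins. Over all genes 1.08% rose and 1.12% fell, which is the share to set beside the counts of this paragraph. Of 26 TGF-beta and Wnt genes, the ligand Gdf11 rose by 0.28 and 3 fell: the secreted Wnt inhibitor Wif1 (-1.14), the co-receptor Tgfbr3 (-0.68) and the latent TGF-beta binding protein Ltbp1 (-0.44). Lama5, Thbs2, Itga1 and Gdf11 did not pass without control 3, R140Q 4 and R172K 3 (limma adjusted p = 0.058, 0.0671, 0.065 and 0.0824). Leaving out any 1 of the 12 arrays ended no call for Lama5, Itga6 or Wif1. Calls ended for Thbs2, Itga1, Gdf11, Tgfbr3 and Ltbp1 in 10, 4, 7, 6 and 5 such fits (limma adjusted p up to 0.137, 0.065, 0.0897, 0.0821 and 0.0731, respectively), the array left out being R140Q 1, 2, 3 or 4, control 1, 2, 3 or 4, or R172K 1 or 2.

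Several endothelial genes rose in R140Q hearts. Of 24 endothelial markers 5 rose and none fell (1.08% of all genes rose), and in 12 the R140Q arrays lay above all control arrays (7.79% of all genes). The 5 were the endothelial cadherin Cdh5 (0.45 ± 0.08), the VEGF receptors Kdr (0.45 ± 0.08) and Flt4 (0.42 ± 0.09), the junction protein Esam (0.49 ± 0.10) and the transcription factor Sox18 (0.54 ± 0.12). Cdh5 read 11.12, 11.12, 11.02 and 11.05 in control arrays 1 to 4 and 11.51, 11.50, 11.62 and 11.45 in R140Q arrays 1 to 4, with a narrow spread in both groups and no overlap. The summed linear intensity of the 24 markers ran from 23184 to 23887 in control and from 26580 to 28110 in R140Q arrays. In whole hearts more cells of a type and more RNA per cell cannot be told apart. Without control 3, R140Q 4 and R172K 3 only Cdh5 passed, with a difference of 0.45 (limma adjusted p = 0.0275), and the count fell from 5 to 1. Without R140Q 1, 3 or 4, control 1, 2, 3 or 4, or R172K 1 or 2, the call ended for 1 or more of Cdh5, Kdr, Flt4, Esam and Sox18, in 3, 4, 6, 5 and 8 fits, respectively, with limma adjusted p up to 0.0626, 0.0734, 0.0906, 0.0843 and 0.138.

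Other cell type markers were measured beside these genes. The summed intensity of 12 cardiomyocyte markers ran from 110654 to 116636 in control and from 104158 to 108520 in R140Q arrays, without overlap, and none of the 12 passed. The sum of 14 skeletal muscle markers ran from 10237 to 11615 in control and from 12652 to 15985 in R140Q arrays, but Acta1 belongs to that list and was its only changed member. Atrial markers summed to between 6916 and 31734 in control, with control 3 highest, and between 2214 and 11093 in R140Q arrays. The median sum was 7349.5 in control and 8656.2 in R140Q arrays, the opposite direction to the median difference per gene. Of 12 atrial markers none passed, but the median difference was -0.893, 2 differences were positive, and in 5 the R140Q arrays lay below all control arrays (7.04% of all genes). With the 8 arrays alone 2 of them fell, where 3.06% of all genes did. Myl7, the atrial myosin light chain, read 8.58, 6.18, 12.49 and 8.99 in control arrays 1 to 4 and 6.04, 5.33, 5.54 and 5.23 in R140Q arrays 1 to 4, a difference of -3.52 that did not pass (limma adjusted p = 0.109). Lung markers summed to between 1430 and 1585 in control and between 814 and 5786 in R140Q arrays, with R140Q 4 highest. Hopx, a lung list member that heart muscle also expresses, fell by 1.10 ± 0.25, and Cidea, a lipid droplet protein of the adipocyte list, rose by 0.62 ± 0.15. No listed fibroblast, mural, myeloid, lymphocyte, epicardial, erythroid or neural marker passed. With the log2 intensity of Myl7 as a covariate 13 genes passed; Myl7 differs between these groups without overlap, so it takes up part of the group difference, and the part of atrial or lung tissue in other results was not tested beyond these fits. Calls ended for Hopx and Cidea in 9 and 10 fits that left out 1 array (limma adjusted p up to 0.145 and 0.136, respectively), the array left out being R140Q 1, 2, 3 or 4, control 1, 2, 3 or 4, or R172K 1 or 2.

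**Figure D4:**
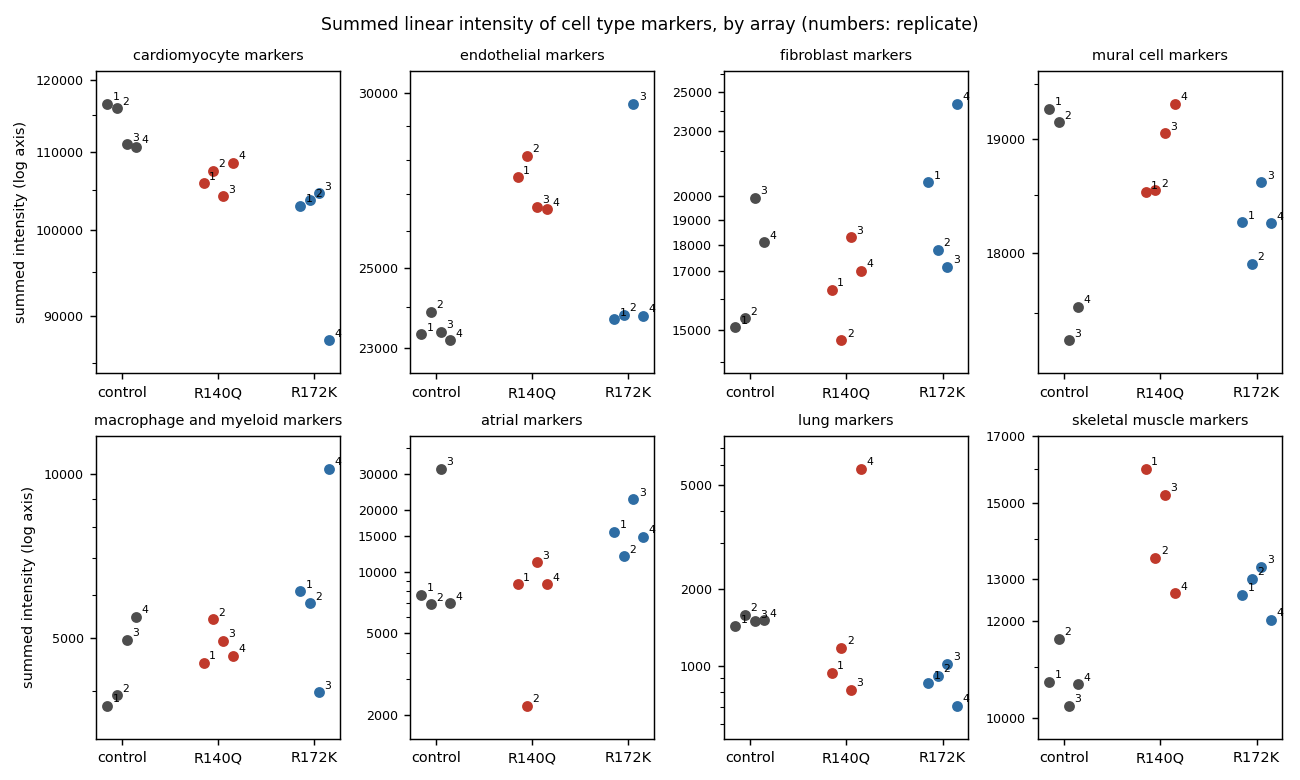
Summed linear intensity (log axis) of 8 lists of cell type markers in each array, numbered by replicate, for control (grey), R140Q (red) and R172K (blue). Endothelial markers of the 4 R140Q arrays lie between 26580 and 28110, above the 4 control arrays, atrial markers are highest in control 3 at 31734, and lung markers in R140Q 4 at 5786.

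Antioxidant genes rose in part. Srxn1, sulfiredoxin, which restores oxidised peroxiredoxins, read 6.75, 7.31, 7.67 and 7.62 in control arrays 1 to 4 and 8.59, 8.37, 8.52 and 8.14 in R140Q arrays 1 to 4, a rise of 1.07 ± 0.21 (limma adjusted p = 0.0249). Txnrd1, cytosolic thioredoxin reductase, read 7.80, 7.96, 8.08 and 8.06 in control arrays 1 to 4 and 8.78, 8.69, 8.54 and 8.58 in R140Q arrays 1 to 4 and rose by 0.67 ± 0.10 (limma adjusted p = 0.00784). For both genes every R140Q array was above every control array, and they were 2 of 26 NRF2 targets, with none lower (1.08% of all genes rose). With the 8 arrays alone 6 were higher and 1 lower, where 3.67% and 3.06% of all genes were. The NRF2 target Srxn1 is shown with its 250 bases before the start (chr2:152105274-152105523, plus strand, RefSeq, GRCm38.p6), in which capitals mark the antioxidant response element.
Srxn1: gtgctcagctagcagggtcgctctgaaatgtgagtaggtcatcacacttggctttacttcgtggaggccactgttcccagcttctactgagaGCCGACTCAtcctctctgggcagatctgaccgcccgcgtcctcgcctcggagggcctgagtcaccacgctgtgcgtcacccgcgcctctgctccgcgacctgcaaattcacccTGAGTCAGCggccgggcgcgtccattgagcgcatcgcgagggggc
It holds 2 matches, TGAGTCAGC on the strand of the gene and GCCGACTCA on the opposite strand, where 23.0% of all promoter windows hold at least 1 match. Catalase (Cat) differed by 0.15 and the mitochondrial superoxide dismutase Sod2 by -0.10, without passing. Leaving out any 1 of the 12 arrays ended no call for Txnrd1. Srxn1 did not pass without R140Q 1 or 3, or control 1 or 2 (limma adjusted p up to 0.0817).

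Among stress and one-carbon genes, Gars and Nars, the tRNA synthetases for glycine and asparagine, rose by 0.34 and 0.39. They were 2 of 24 integrated stress response genes, where 1.08% of all genes rose. Aldh1l2, the mitochondrial formyltetrahydrofolate dehydrogenase, moved the other way. It read 6.96, 6.89, 7.43 and 6.95 in control arrays 1 to 4 and 5.57, 6.24, 5.49 and 5.60 in R140Q arrays 1 to 4, with R140Q 2 well above the other R140Q arrays and below every control array, and fell by 1.33 ± 0.24 (limma adjusted p = 0.0199). Shmt1, the cytosolic serine hydroxymethyltransferase, rose by 0.39 ± 0.09. Hsp90aa1, an inducible chaperone, rose by 0.44 ± 0.10, the only changed member of 26 heat shock genes (1.08% of all genes rose). None of the 26 listed autophagy and lysosome genes passed, a list that does not hold Atg10, which fell (-0.48). Aldh1l2, Shmt1, Gars, Nars and Hsp90aa1 all failed to pass without control 3, R140Q 4 and R172K 3 (limma adjusted p from 0.0711 to 0.141). Without R140Q 1, 2, 3 or 4, control 1, 2, 3 or 4, or R172K 1 or 2, the call ended for 1 or more of Gars, Nars, Aldh1l2, Shmt1 and Hsp90aa1, in 9, 9, 4, 9 and 7 fits, respectively, with limma adjusted p up to 0.134, 0.12, 0.0704, 0.125 and 0.115.

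Transcription and growth genes gave single changes. Nr4a3, an orphan nuclear receptor of the immediate early list, read 6.59, 6.49, 7.73 and 6.58 in control arrays 1 to 4 and 8.71, 9.91, 8.80 and 7.48 in R140Q arrays 1 to 4. Control 3 lay above R140Q 4, so the groups overlapped, and the rise was 1.88 ± 0.43 (limma adjusted p = 0.0445). Without control 3, R140Q 4 and R172K 3 it was 2.59, and 5 of 21 immediate early genes rose, where 186 of 19937 genes did. Hlf, a PAR bZIP factor driven by the clock, went from 8.84 ± 0.13 in control to 7.89 ± 0.17 in R140Q hearts, a difference of -0.95 ± 0.16, the only change among 17 clock genes. With the 8 arrays alone 4 of the 17 fell, where 3.06% of all genes did. Without control 3, R140Q 4 and R172K 3 the count was 2, where 168 of 19937 genes fell. Angpt1, the ligand of the endothelial receptor Tie2, fell by 1.11 ± 0.23, the only change among 34 growth genes. Of these, 2 rose and 6 fell with the 8 arrays alone, where 3.67% and 3.06% of all genes did. Among 16 imprinted growth genes, Slc38a4, Plagl1 (-0.48 ± 0.11), a zinc finger factor, and Grb10 (-0.34 ± 0.08), an adaptor of insulin receptor signalling, fell and none rose. Over all genes 1.12% fell. Plagl1 and Grb10 did not pass without those 3 arrays (limma adjusted p = 0.159 and 0.0891). Calls ended for Nr4a3, Hlf, Angpt1, Plagl1 and Grb10 in 8, 2, 6, 9 and 9 fits that left out 1 array (limma adjusted p up to 0.125, 0.0531, 0.0896, 0.134 and 0.134, respectively), the array left out being R140Q 1, 2, 3 or 4, control 1, 2, 3 or 4, or R172K 1 or 2.

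In 26 cell cycle genes Mybl1 was the only change (1.08% of all genes rose), although the median was 0.34 and 22 differences were positive. Of the 26, 9 rose and 1 fell with the 8 arrays alone, where 3.67% and 3.06% of all genes did. In 10 of the 26 the R140Q arrays lay above all control arrays, where 7.79% of all genes did. The bright Cdk4, Ccnd2 and Pcna differed by 0.05, 0.34 and -0.37. All 23 interferon and antigen presentation genes had a positive difference, between 0.009 and 0.568 with a median of 0.182, but none passed and in none did the groups separate. B2m, the light chain of MHC class I, lay at 11.74 ± 0.59 in control and 12.27 ± 0.08 in R140Q hearts (limma adjusted p = 0.248). It read 11.14, 11.33, 12.22 and 12.26 in control arrays 1 to 4 and 12.36, 12.28, 12.25 and 12.17 in R140Q arrays 1 to 4. Control 3 and 4 lay within the R140Q range, so the difference rests on control 1 and 2. The list members Cd74 and H2-Aa were also lowest in control 1 and 2, and their control 4 lay above every R140Q array.

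R140Q hearts were then set against R172K hearts to ask which changes differed in size between the mutant forms. Between them 296 genes differed (1.48%), 97 higher in R172K (0.487%) and 199 lower (0.998%). That count was 9 with the 8 mutant arrays alone, 5 without R140Q 1 or R172K 2, 1 without R140Q 4 or R172K 1, 45 and 180 without R140Q 3 and 2, between 93 and 118 without any 1 of the 4 control arrays, and 1577 without R172K 3, so calls between the mutants rest on few arrays. For the leading genes of R140Q hearts the difference from R172K hearts (R172K minus R140Q) did not pass. It was -0.26 ± 0.27 for Nppb, 0.01 ± 0.16 for Acta1, 0.25 ± 0.22 for Slc38a4, 0.24 ± 0.27 for Phkg1 and 1.26 ± 0.69 for Nmrk2 (limma adjusted p between 0.405 and 0.985). In means of 4, Nppb lay at 12.42 ± 0.27 in R140Q and 12.16 ± 0.62 in R172K hearts, Acta1 at 12.64 ± 0.32 and 12.65 ± 0.22, and Nmrk2 at 10.77 ± 1.93 and 12.03 ± 0.40. A miss of the threshold does not show that these levels are alike.

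Of the 439 genes, 21 also differed between the mutants; they were chosen after their values were seen. Both comparisons use the R140Q arrays, so a gene with extreme values there passes both more readily. By group means R140Q was highest of the 3 groups for 13 of the 21 and lowest for 6, and for Antxr2, an anthrax toxin receptor, and the autophagy gene Atg10 R172K hearts lay further from control than R140Q hearts. Slc38a1 read 8.51, 8.63, 7.98 and 7.66 in R172K arrays 1 to 4, within or near the control range and above every R140Q array. It differed by 1.41 ± 0.23 between the mutants (limma adjusted p = 0.0237), with an adjusted p of 0.0839 in the limma fit of the 8 mutant arrays. In that fit Gnai1, an inhibitory G protein subunit, and Rgs1, a regulator of G protein signalling, passed, both at a limma adjusted p of 0.0394. Gnai1 read 6.78, 6.74, 6.61 and 6.72 in R140Q arrays 1 to 4 and 7.43, 7.50, 7.26 and 7.26 in R172K arrays 1 to 4, with control at 7.42, 7.42, 7.04 and 7.05. Rgs1 had means of 4.54 ± 0.05 in R140Q, 5.13 ± 0.08 in R172K and 4.97 ± 0.20 in control hearts, low levels throughout. On the high side were Camk2b, a subunit of the calmodulin-dependent kinase (8.75 ± 0.13 in R140Q hearts, 7.98 ± 0.23 in R172K and 8.03 ± 0.29 in control), the alkaline phosphatase Alpl, the proton-sensing receptor Gpr4, the integrin Itga1 and the ubiquitin ligase adaptor Fbxo30. None of the 21 differences between the mutants passed whichever array was left out: Slc38a1 and Rgs1 failed without R140Q 1 or 4 or R172K 1 or 2 (limma adjusted p up to 0.0861 and 0.08), and Gnai1 and Camk2b also without R140Q 3 (up to 0.0838 and 0.106).

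**Figure D5:**
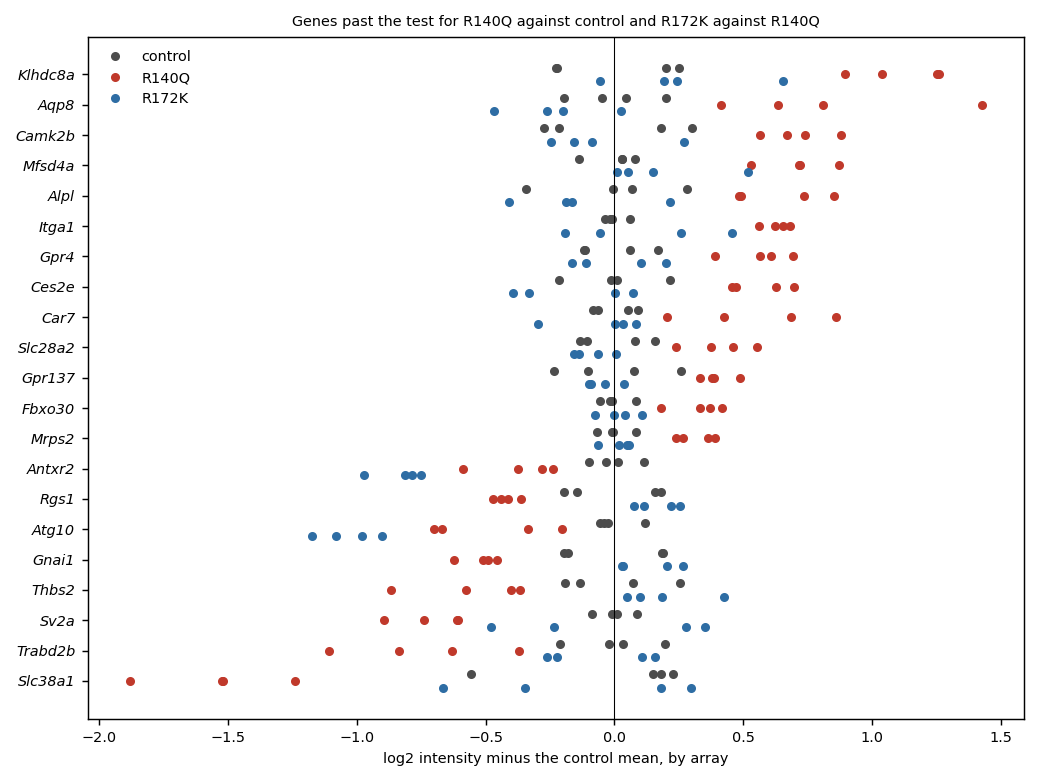
Log2 intensity minus the control mean for the 21 genes that passed for R140Q against control and for R172K against R140Q, with 4 points each for control (grey), R140Q (red) and R172K (blue) arrays. R140Q lies highest by group mean for the 13 genes from Klhdc8a to Mrps2 and lowest for 6, Slc38a1 with the widest gap, and for Antxr2 and Atg10 the R172K points lie furthest from 0.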

How the data were processed

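Total RNA of mouse hearts was measured on 12 Affymetrix arrays, 4 each for control, R140Q and R172K, as the labels group them. The authors processed the arrays with RMA, per the submitters' processing notes; the sources used here do not give its version, the annotation or the genome build. The deposited values are intensity on a linear scale, as judged from their range of 4.43 to 17591, and log2 was taken with no pseudocount because none is at 0. RMA brings the arrays to nearly 1 distribution and thereby hides any change common to most genes, and with no detection calls a dim value may lie at background.

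The platform's table gives 1 gene symbol for 21640 of the 34760 probe sets, several for 1321 and none for 11799, which it does not list or leaves unnamed; gene IDs of 21553 matched RefSeq genes of GRCm38.p6. The probe set with the highest mean stood for a gene, which chose between probe sets for 954 of 19937 genes. R 4.3.3 and limma 3.58.1 (lmFit, then eBayes; two-sided tests, 9 residual and 3.54 prior degrees of freedom) gave group means from all 12 arrays, with Benjamini-Hochberg adjustment over 19937 genes. On simulated data this fit recovered 8%, 82%, 96% and 100% of 50 genes each changed 1.2-, 1.5-, 2- and 4-fold between R140Q and control, and 3 of its 146 calls were false. The simulation drew each gene independently, with the same SD in every array. It held no tissue differences between arrays and no noisier R172K arrays, so these shares need not hold for the 439 calls. The number of arrays limits the precision. The closest control arrays, 1 and 2, differed by an SD of 0.248 in log2 over probe sets, so no array was treated as a copy.

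Gene lists numbered 56, with 1043 of 1130 genes measured and 71 of these changed; many genes and lists overlap. They are described by counts and medians without a list test. The genes named are the 15 largest higher and 15 largest lower changes among those without overlap, leaving out predicted and clone names, every changed list member, up to 3 bright members that did not pass, and Idh2, Nppb, Acta1, Slc38a4, Phkg1 and sex-linked genes. A gene picked by this rule is not reported here. The 21 genes that differ between mutants, Mir490 and Myl7 were chosen after their values were seen. Members and lists were chosen with earlier results of these data known. Alternatives covered the arrays in the fit, replicate number, probe set choice, dim genes, normalization, variance model, array weights, thresholds and each array left out; the fits without the 3 arrays high in atrial or lung markers and with Myl7 as a covariate were chosen after seeing the data.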

Additional observations from a re-analysis of the deposited data

Results flagged for a closer look

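The 104 genes checked were the 102 named genes that passed, with Xist and Myl7. In 9 of their 208 groups of 4 arrays, 1 array lay apart from the rest. Its distance to its nearest neighbour, as a share of the range of the group, was above Dixon's critical value. Chance gives this in about 1 in 20 groups. The share of the range was 0.864 for Aldh1l2 in control 3 and 0.858 in R140Q 2, 0.852 for Ctla2a and 0.919 for Nr4a3 in control 3, and 0.897 for Ankrd1 and 0.878 for Mybl1 in R140Q 2. It was 0.993 for Ednrb in R140Q 4, 0.903 for Slc38a1 in control 4 and 0.877 for Sntb1 in control 4, whose group spans a narrow range.

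R172K hearts differed from R140Q hearts past the limma threshold for 27 named genes. R172K was lower than R140Q (R172K minus R140Q in log2) for Klhdc8a (-0.854), Aqp8 (-1.049), Camk2b (-0.769), Mfsd4a (-0.528), Alpl (-0.778), Itga1 (-0.514), Gpr4 (-0.556), Ces2e (-0.726), Car7 (-0.59), Slc28a2 (-0.494), Gpr137 (-0.444), Fbxo30 (-0.309) and Mrps2 (-0.301), which had risen in R140Q hearts. It was also lower for Antxr2 (-0.46) and Atg10 (-0.557), which had fallen, and for the endothelial water channel Aqp1 (-0.712), the cyclin Ccnd2 (-0.958), the prolyl hydroxylase Egln1 (-0.621) and the Y-linked Uty (-0.305), which had not passed for R140Q. R172K was higher for Slc38a1 (1.407), Rgs1 (0.589), Gnai1 (0.652), Thbs2 (0.741), Sv2a (0.692) and Trabd2b (0.682), which had fallen in R140Q hearts, and for Tgfbr2 (0.374) and the atrial light chain Myl4 (3.52), which had not passed.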

How the results depend on the processing

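The 439 genes of R140Q against control became 1342 with the 8 arrays alone, 271 with every probe set tested, 1651 with array weights, 73 at an adjusted p under 0.01, 8 in a test against a 1.2-fold change and 13 with Myl7 as a covariate, and ran from 100 to 1015 with 1 array left out. The mean of probe sets (435), no dimmer genes (567), median centring (446), quantile normalization (474), a variance trend (387) and leaving out control 3, R140Q 4 and R172K 3 together (354) kept it within 1.5 times. The 296 genes of R172K against R140Q became 9, 5, 1774, 1, 0 and 5 under the first 6 of these, 449 without the dimmer genes, 179 with a variance trend and 806 without the 3 arrays, and ran from 1 to 1577 with 1 array left out. By limma, 3394 genes had an unadjusted p under 0.05 for R140Q against control. Of 102 named genes that passed, 28 passed whichever array was left out, 102 with the 8 arrays alone, 61 without the 3 arrays and 6 with the covariate; none turned direction in any of these fits. Probe sets near background limit what dim genes can show.

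With the replicate number as a block, 196 genes passed for R140Q against control (86 higher, 110 lower) and 54 of the 102 named genes, and 11 genes passed for R172K against R140Q. Deviations of same-numbered control and R140Q arrays correlated at -0.005, -0.022, 0.047 and -0.132. Against R172K arrays of the same number the values were -0.003, 0.152, -0.128 and 0.129 for control and 0.016, 0.001, -0.336 and -0.114 for R140Q. Deviations sum to 0 within each group, so these values cannot decide whether the numbers pair samples.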
